A study of Danio rerio with 49 samples.

Results

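The timing of DNA replication in rif1 mutant zebrafish embryos was compared between the Bud stage and 24 hours post fertilisation (hpf). Zebrafish (Danio rerio) of the Tab5 strain were used, homozygous for the omf201 allele of rif1 (omf201/omf201, called omf201 here). The comparison took the sorted S-phase nuclei of this genotype, 4 samples at Bud (10 hpf) and 4 at 24 hpf, 8 of the 49 samples of the series. Nuclei of embryos had been stained with propidium iodide, a dye for DNA, and sorted by DNA content into G1 and S fractions. The sentence of the protocol on the sorter gives a later age for the last stage, and the labelled 24 hpf is kept here. Both groups carried the same allele, so the comparison shows how timing changed over development in embryos with mutant Rif1, and not the effect of the mutation. For that, 8 S-phase samples of wild type (WT) Tab5 embryos from the same stages and the same sorting scheme were set beside them. The nuclei came from embryos and were sorted by DNA content, so timing is an average over cells. A change within cells cannot be told apart from a change in the mix of cell types. Whether the replicates came from separate clutches is not stated, so p-values measure the spread between these samples.

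Large stretches of a chromosome copy early in S phase and others late, and the order is set by when neighbouring origins fire. Rif1 binds chromatin in late-replicating regions and brings protein phosphatase 1 there, which counters the kinase that switches origins on. In cultured mammalian and yeast cells that lack Rif1, early and late domains become less distinct. In animals the programme also forms step by step as embryos develop and cell types appear, and the Bud to 24 hpf interval spans the building of somites and organs.

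Timing was read from copy number. A sequence copied early has more copies than average in nuclei in S phase but not in G1, and the authors deposited this as a ratio in overlapping windows, mostly of 60 kb with a step of 10 kb, smoothed along the chromosome. They also gave the ratio as log2 and as a z-score, which is the distance from the mean of the library in SDs across its windows. Windows with a higher z-score were thus copied earlier than the rest of that library's genome. Coordinates are those of the files, on GRCz11 per the submitters' processing notes. Over 20452 windows that share at most 1 base, the S-phase libraries held 5.90 to 14.8 M counts (M, mega) at Bud and 14.5 to 17.1 M at 24 hpf. A single window thus held a mean of 288 to 722 counts at Bud and 708 to 835 at 24 hpf, with a counting error of 3.72% to 5.89% and 3.46% to 3.76% before smoothing. In z units the Bud samples also differed more from one another, with a median SD per window of 0.289 against 0.143 at 24 hpf. The z unit, the SD of each library, was itself smaller at Bud. Pearson correlations between profiles, across windows, were 0.841 to 0.907 among the Bud samples and 0.956 to 0.973 among the 24 hpf samples. Between a Bud and a 24 hpf sample they were 0.583 to 0.676. Bud replicate 3, the shallowest of the omf201 S-phase libraries at 5.90 M counts, was the least like the others. Its mean correlation was 0.858 to the other Bud samples and 0.598 to those at 24 hpf, against 0.649 to 0.670 for the other Bud samples. The part of depth in this was not tested. All these correlations are descriptions, since windows overlap and all omf201 profiles share a G1 reference.

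The timing profiles of omf201 embryos had a larger amplitude at 24 hpf than at Bud. The amplitude of a profile was taken as the SD of its log2 smoothed ratios of S-phase to G1 DNA. It was 0.101, 0.0929, 0.103 and 0.101 in the Bud samples and 0.167, 0.159, 0.158 and 0.166 at 24 hpf. Every 24 hpf sample lay above every Bud sample. The means were 0.0992 ± 0.00431 and 0.162 ± 0.00427 (SD, n = 4 each), a ratio of 1.64. A two-sided exact permutation test gave p = 0.0286, which is the lowest value possible with 4 against 4 samples. In WT the amplitude went from 0.155 to 0.212, a ratio of 1.36, with the same exact permutation p = 0.0286. The difference between these ratios was not tested. The number of timing peaks, local highs with a prominence of at least 0.5 z units, was 888 to 939 per sample at Bud and 744 to 756 at 24 hpf. The peak counts of the stages did not overlap, and in WT they were 891 to 922 and 780 to 800. The z unit is the SD of each library, so a prominence of 0.5 z units was a smaller step in log2 at Bud than at 24 hpf. Of the 4 Bud libraries 3 were also shallower than every 24 hpf library. The parts of this threshold and of depth in the count were not tested.

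Changes in timing between the stages were spread over all 25 chromosomes of omf201, with between 48.8% (chromosome 20) and 62.3% (chromosome 4) of the windows of each called. With limma on z-scores and Benjamini-Hochberg adjustment over 120059 windows, 65912 windows (54.9%) differed between the stages at an adjusted p under 0.05. Of these, 32072 (26.7% of all windows) were earlier at 24 hpf and 33840 (28.2%) were later. Most changes were small, with a median size of 0.486 z units over all windows, a median standard error of 0.169, and values of -1.21 and 1.32 at the quantiles of 0.05 and 0.95. Calls with a change above 1 z unit covered 21333 windows (17.8%). In 59045 windows (49.2%) the 4 Bud and 4 24 hpf values did not overlap. Tested on S-phase counts with edgeR's quasi-likelihood test, which uses no G1 reference and no smoothing, 46079 windows (38.4%) were called. The omf201 G1 libraries of these stages, tested the same way, differed in 306 windows (0.255%). Of the 120059 windows, 12172 had an unadjusted p under 0.05 in this G1 test, more than the share of 0.05 that chance gives. Z-scores are centred on the mean of each library, so a shift of the whole genome cannot be seen in them. The share of calls that were higher at 24 hpf was 48.7% on z-scores, 42.4% on the deposited log2 values, 57.7% on log2 values centred on the median, 54.9% with edgeR and 58.9% with DESeq2.

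Some regions crossed from the early to the late side of the genome's mean. In 7927 windows all 4 Bud samples lay above 0 and all 4 24 hpf samples below it. In 4912 windows (4.09%) all samples made the opposite move. In 29588 windows (24.6%) all 8 samples stayed above 0, and in 36672 (30.5%) all stayed below, so the sides were kept more often than changed. In the remaining 40960 windows (34.1%) the samples of a stage were split.

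The step from Bud to 24 hpf in omf201 took largely the direction of the WT step. Windows were first classed by the WT samples alone, in which 73902 windows (61.6%) changed, 36910 (30.7%) to earlier and 36992 (30.8%) to later. Over the windows that became earlier in WT, the mean z-score in omf201 was -0.198, -0.161, -0.217 and -0.205 in the Bud samples and 0.451, 0.452, 0.440 and 0.444 at 24 hpf. The stages did not overlap, and the mean rose from -0.195 ± 0.0243 to 0.447 ± 0.00594 (SD, n = 4 each), a change of 0.642. The two-sided exact permutation p was 0.0286, and 0.0381 after adjustment over 4 classes. Of these windows 59.3% were called earlier in omf201 too, 3.80% were called later, and 13622 were not called. Over the windows that became later in WT, the omf201 samples lay at 0.210, 0.175, 0.242 and 0.218 at Bud and at -0.398, -0.402, -0.387 and -0.393 at 24 hpf. Their mean fell by 0.606 (exact permutation p = 0.0286, adjusted p = 0.0381), with 22197 of the windows called later and 976 (2.64%) called earlier. The changes in WT itself, the measure that chose these windows, were 0.665 and -0.663.

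**Figure D1:**
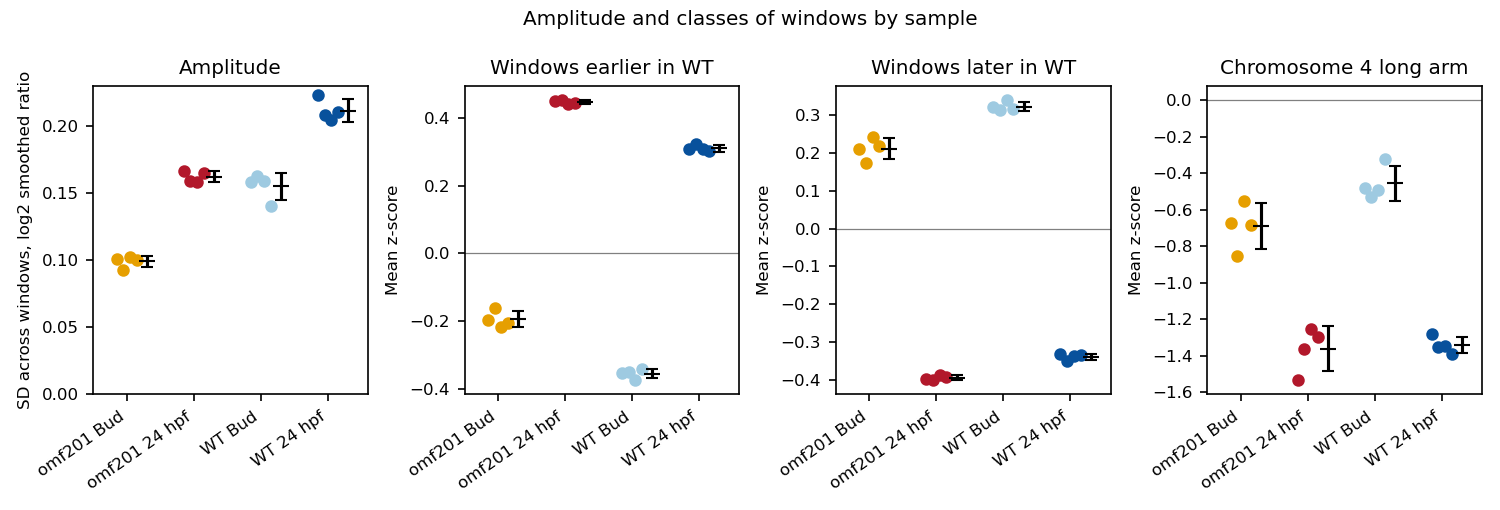
Each point is 1 S-phase sample, 4 per group, with the mean and SD of the group as a black bar beside the points. The first panel gives the SD across windows of the log2 smoothed ratio, and the others the mean z-score over windows called earlier in WT, windows called later in WT and the long arm of chromosome 4; WT chose the windows of the middle panels. In each panel the 4 omf201 samples at 24 hpf are clear of the 4 at Bud.

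The same held in the other direction. Over the 32072 windows called earlier in omf201, the WT samples ran from -0.462 to -0.434 at Bud and from 0.0788 to 0.0972 at 24 hpf, a change of 0.533 (exact permutation p = 0.0286). Over the 33840 windows called later in omf201 the WT mean fell by 0.488, from 0.557 to 0.0684 (exact permutation p = 0.0286). In both genotypes 44084 windows (36.7%) were called in the same direction. These made up 68.2% of the windows called earlier in omf201 and 65.6% of those called later. Another 26706 windows (22.2%) were called in neither genotype. Across 20452 windows the omf201 and WT changes had a Pearson correlation of 0.727, given as a description, and no sample or G1 library enters both.

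Other windows took a different course in omf201. The change from Bud to 24 hpf differed between the genotypes, by the limma interaction of genotype and stage, in 31681 windows (26.4%). The share was 10.8% with edgeR on counts, 15.4% with the like-numbered G1 library as reference, 14.4% at an adjusted p under 0.01 and 40.2% on log2 values. Of the 31681, 11470 (9.55% of all windows) were called in omf201 and not in WT, a class of 19451 windows (16.2%) in all. A further 9829 were called in both in the same direction, and in 8675 of them the change was larger in omf201, against 1154 in which it was larger in WT. On the log2 scale that split of the 9829 was 8305 and 1524. These windows had to be called in omf201, where the median standard error was 0.169 z units against 0.114 in WT. A call in omf201 thus took a larger change, which favours omf201 in both splits. Windows called in WT only made up 7481 of the interaction calls (6.23% of all windows), and that class was larger, with 27441 windows (22.9%) in all. Opposite calls in the genotypes were rare, 2377 windows (1.98%), of which 976 were earlier in omf201 and 1401 later.

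**Figure D2:**
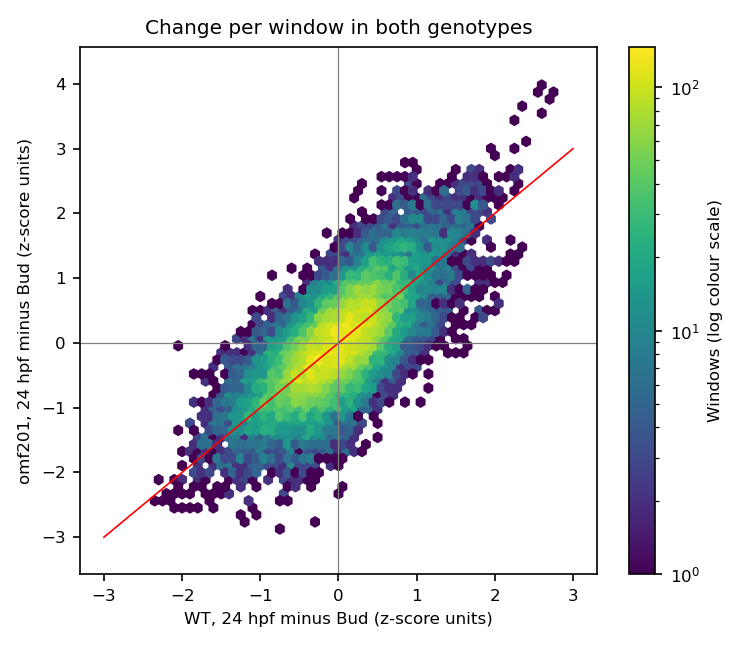
Hexagons count windows, on a log colour scale, by their change from Bud to 24 hpf in WT (x axis) and in omf201 (y axis), both in z-score units, for 20452 windows that share at most 1 base. The red line marks equal change. The cloud runs from later in both to earlier in both, with a Pearson correlation of 0.727, and the few windows with the largest changes to earlier lie above the line.

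Sorting windows by their timing in WT at Bud gave 4 equal classes of 30014 or 30015 windows, which rest on samples that do not enter the omf201 values. In the class that was latest in WT at Bud, the omf201 samples lay between -1.04 and -0.974 at Bud and between -0.623 and -0.594 at 24 hpf. Of these windows 44.4% were called earlier and 7.23% later, against 26.7% and 28.2% of all windows. In the earliest class the omf201 samples lay between 0.982 and 1.05 at Bud and between 0.628 and 0.659 at 24 hpf. Of its windows 49.6% were called later and 14.2% earlier. Both ends of the WT Bud programme thus lay closer to the genome mean at 24 hpf in omf201 in z units, the SD of each library, which was larger at 24 hpf. On the log2 scale the latest class had -0.110 to -0.0960 at Bud and -0.118 to -0.106 at 24 hpf, and the earliest 0.0884 to 0.100 and 0.0895 to 0.0992, with overlap. In WT, in z units, the latest class went from -1.34 to -1.07 and the earliest from 1.19 to 1.04. These classes were picked for extreme values at Bud, so the values are given without a test.

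Called windows were joined into domains. Neighbouring windows overlap and the profiles are smoothed, so calls lie in runs by construction, and the lengths depend on this. Joining called windows of one direction whose starts lay no more than 100 kb apart gave 636 domains that became earlier, with a median length of 470 kb, and 756 that became later, with a median of 450 kb. Of the earlier domains 85 were at least 1 Mb long, and of the later ones 80. The 6 longest in each direction and the 4 of at least 500 kb with the largest mean change are described below. These domains were chosen by their calls, so the omf201 values describe them and are not tested again, whereas the WT values come from other samples. The WT mean moved in the same direction in 20 of these 20 domains, and in 15 the WT samples of the stages did not overlap. Of all windows 61.6% were called in WT, and the share without overlap in WT over all windows was not computed. The 15 domains are thus no sign of more change in WT there than elsewhere. On the log2 scale the genotypes had the same direction in 19 of the 20, all but chr2:35890000-38590001. The change was larger in omf201 than in WT in 19 of the 20 domains in z units and in 14 on the log2 scale. The choice of domains by the omf201 change favours a larger change in omf201 than in WT. These counts, and the shares of interaction calls in the domains below, are thus descriptions and no test of the genotypes. The mean log2 difference of the G1 libraries between the stages was between -0.0486 and 0.0539 and had the sign of the S-phase change in 19 of the 20 domains, all 10 earlier ones and 9 of the 10 later ones. With the G1 libraries of each stage as its own reference, the omf201 changes were 0.709 to 1.06 times those reported.

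Among domains that became earlier, the largest change lay near the start of chromosome 24, at chr24:950000-2150001. Its mean z-score was -0.837, -0.472, -1.004 and -0.231 in the Bud samples and 1.83, 2.26, 1.71 and 2.17 at 24 hpf, a change of 2.63. All Bud samples were on the late side and all 24 hpf samples were among the early parts of the genome. In WT the same 1200 kb went from -1.11 ± 0.0783 to 0.707 ± 0.0329 (SD, n = 4 each), a change of 1.81. On the log2 scale this domain changed by 0.36 in omf201 and 0.32 in WT. Of its 104 windows, 68.3% had an interaction call. The longest earlier domain followed it on the same chromosome, at chr24:2660000-5960001, and spanned 3300 kb. Its Bud samples lay at -0.367, 0.169, -0.136 and 0.226 and its 24 hpf samples at 1.12, 1.14, 1.24 and 1.105. The change was 1.18 in omf201 and 0.541 in WT.

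The clearest departure from WT among the earlier domains was chr19:28200000-29280001. Its omf201 values were 0.0414, -0.0885, -0.259 and -0.142 at Bud and 1.75, 1.69, 1.61 and 1.69 at 24 hpf, a change of 1.80. In WT the values were -0.244, -0.241, -0.126 and -0.271 at Bud and 0.124, 0.0749, -0.00101 and 0.0329 at 24 hpf, a change of 0.278. At Bud the samples of both genotypes overlapped, and at 24 hpf every omf201 sample was far above every WT sample. The interaction was called in 98.97% of its 97 windows, and edgeR on counts called the omf201 change in all of them (100.0%). At chr18:38170000-38860001 the change was 1.82 in omf201 and 0.345 in WT, with the interaction called in 93.3% of 60 windows. Bud replicate 3 was apart there, at -0.446 against 0.0987 to 0.151 in the other Bud samples, and all of them lay under the 24 hpf samples at 1.68 to 2.02. At chr6:6300000-6870001 omf201 moved from -0.349 ± 0.164 to 1.71 ± 0.134 and WT from -0.0164 ± 0.205 to 1.43 ± 0.0291 (SD, n = 4 each). On the log2 scale these changes were 0.29 in omf201 and 0.27 in WT.

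**Figure D3:**
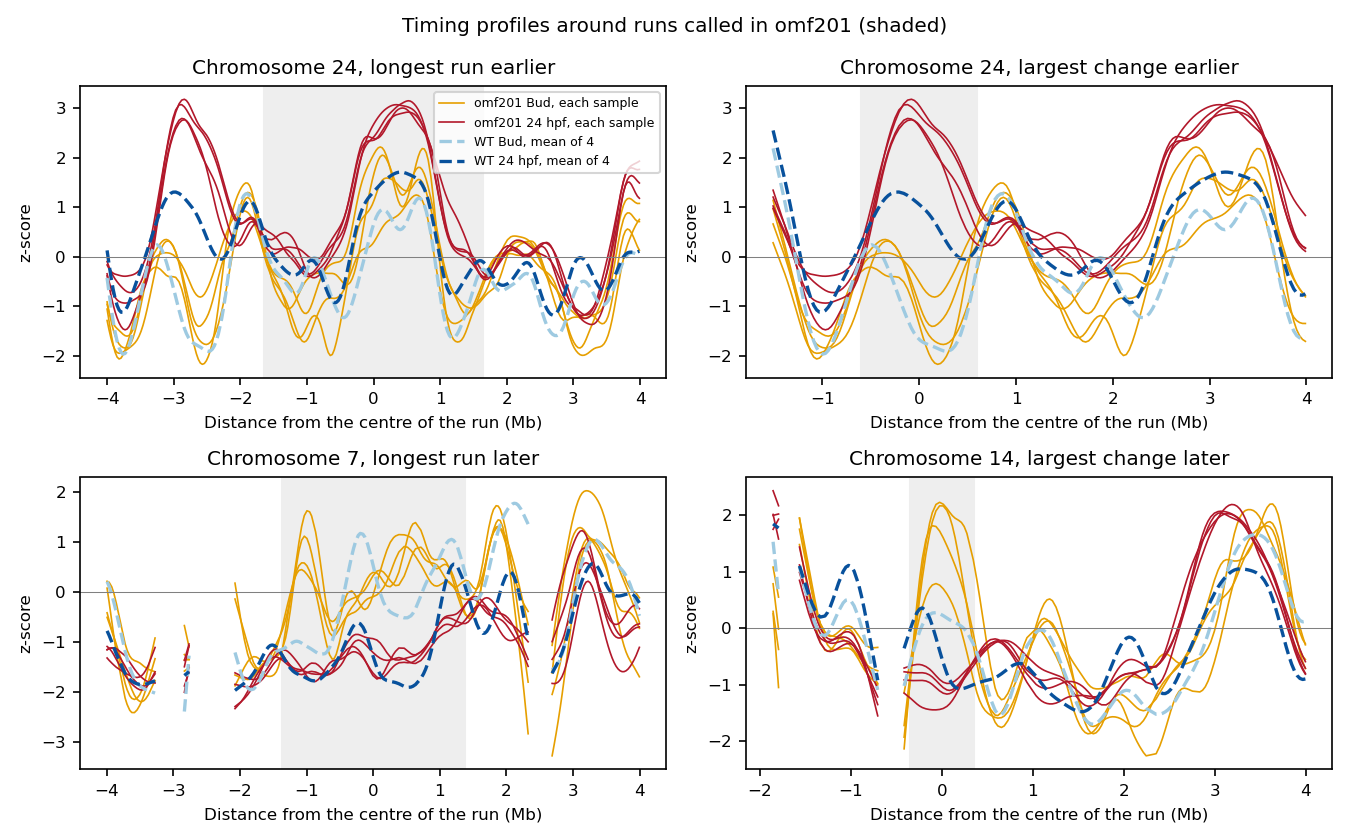
Deposited z-score profiles (y axis) are plotted against distance in Mb from the centre of 4 domains, shaded: the longest and the most changed earlier domains, both on chromosome 24, and the longest and most changed later domains, on chromosomes 7 and 14. Each omf201 sample is a thin line (orange at Bud, red at 24 hpf), each WT stage is a dashed mean of 4 samples, and lines break where windows are lacking. In the upper right panel the 24 hpf omf201 samples form a peak of about the height of the neighbouring one, where the Bud samples had a valley.

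The other long earlier domains started from different places. At chr14:34800000-37460001 the omf201 mean went from -0.662 ± 0.0303 to 0.582 ± 0.0557, whereas WT went from -0.702 ± 0.109 to -0.106 ± 0.0333 and stayed on the late side (SD, n = 4 each). An interaction was called in 57.9% of its windows. This domain had the largest G1 difference of the 20, 0.0539 in log2, and its omf201 change of 1.24 was 0.883 with the G1 libraries of each stage as reference and 0.823 with the like-numbered G1 library. At chr9:6080000-8820001 the change was 1.11 in omf201 and 0.843 in WT (0.14 and 0.13 on the log2 scale). At chr12:36150000-38520001 it was 1.22 and 0.808 (0.18 and 0.14 on the log2 scale). At chr4:16940000-19400001, on the short arm, the changes of 0.763 and 0.696 (0.13 and 0.14 on the log2 scale) differed by the interaction in none of the 237 windows, and 94.5% of them were called earlier in WT too. At chr12:38820000-41370001 a very late region moved from between -2.05 and -1.94 at Bud to between -1.26 and -1.21 at 24 hpf in z-score but from -0.214 ± 0.0139 to -0.223 ± 0.00400 on the log2 scale (SD, n = 4 each). The log2 ratio there was almost the same at both stages while the SD of the library grew, so the direction of this domain depends on the scale, and edgeR called 0.446% of its windows.

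The later domains were led by chr14:1790000-2500001. Its mean z-score was 1.13, 0.317, 1.61 and 1.28 at Bud and -0.804, -1.27, -1.005 and -0.912 at 24 hpf, a change of -2.08. In WT the Bud samples lay at 0.109, 0.457, 0.0120 and -0.276 and the 24 hpf samples at -0.271, -0.435, -0.409 and -0.554. At Bud 3 of the 4 omf201 samples were above all WT samples, replicate 2 was within their range, and at 24 hpf all 4 were below them. Interaction calls covered 81.5% of its 54 windows. At chr5:61230000-62030001 the omf201 samples went from 0.722 to 1.28 at Bud to between -0.987 and -0.638 at 24 hpf. In WT this domain went from 0.976 ± 0.187 to 0.133 ± 0.0469 (SD, n = 4 each), and the interaction was called in 83.1% of its windows.

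The first 11 Mb of chromosome 22 held 4 of the 10 later domains. At chr22:9690000-10820001 the omf201 samples were at 1.56, 1.59, 1.55 and 1.44 at Bud and at -0.0842, -0.409, 0.0563 and -0.243 at 24 hpf, a change of -1.71. The WT values fell between 1.17 and 1.65 at Bud and between 0.731 and 1.24 at 24 hpf, and they overlapped. Of its windows 82.1% had an interaction call. At chr22:560000-3160001 omf201 went from 0.181 ± 0.118 to -0.933 ± 0.154, and WT from 1.23 ± 0.109 to 0.562 ± 0.413 (SD, n = 4 each), where 1 WT sample at 24 hpf stood at 1.18. At chr22:4240000-6620001 the changes were -1.18 in omf201 and -0.882 in WT, with the interaction called in none of its windows, and both were -0.15 on the log2 scale. The WT samples of this domain lay between 0.474 and 0.919 at Bud and at 0.542, -0.608, -0.513 and -0.122 at 24 hpf, with overlap. The WT sample at 0.542 was the same that stood at 1.18 in the domain before. At chr22:8570000-9080001 the changes were -1.72 and -1.13 in z units and -0.27 and -0.31 on the log2 scale, but only 16 windows covered the domain and none was of the usual 60 kb.

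The longest later domain was chr7:4230000-6980001, of 2750 kb. Its Bud samples lay at 0.0729, 0.139, 0.359 and 0.181 and its 24 hpf samples at -1.26, -1.15, -1.26 and -1.28, a change of -1.43 against -1.08 in WT in z units and of -0.24 against -0.26 on the log2 scale. It was sparsely covered, with 200 windows, of which 26.5% were of the usual 60 kb. At chr2:35890000-38590001 the Bud samples lay at 0.497, 0.488, 0.525 and 0.777 and the 24 hpf samples at -0.332, -0.359, -0.280 and -0.232. This domain of 2700 kb crossed to the late side in omf201 and kept early timing in WT, which went from 0.762 ± 0.112 to 0.593 ± 0.0642 (SD, n = 4 each). The interaction was called in 65.6% of its 253 windows, and edgeR called the omf201 change in 45.1%. At chr2:6720000-8940001, in contrast, the changes were -0.744 and -0.661 (-0.09 and -0.12 on the log2 scale) with the interaction called in 2.46% of windows. At chr4:28130000-30800001, the start of the long arm, they were -1.33 and -1.38 (-0.24 and -0.31 on the log2 scale), with the interaction called in 2.48%. Of the 202 windows of this last domain 55.9% were of the usual 60 kb.

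**Figure D4:**
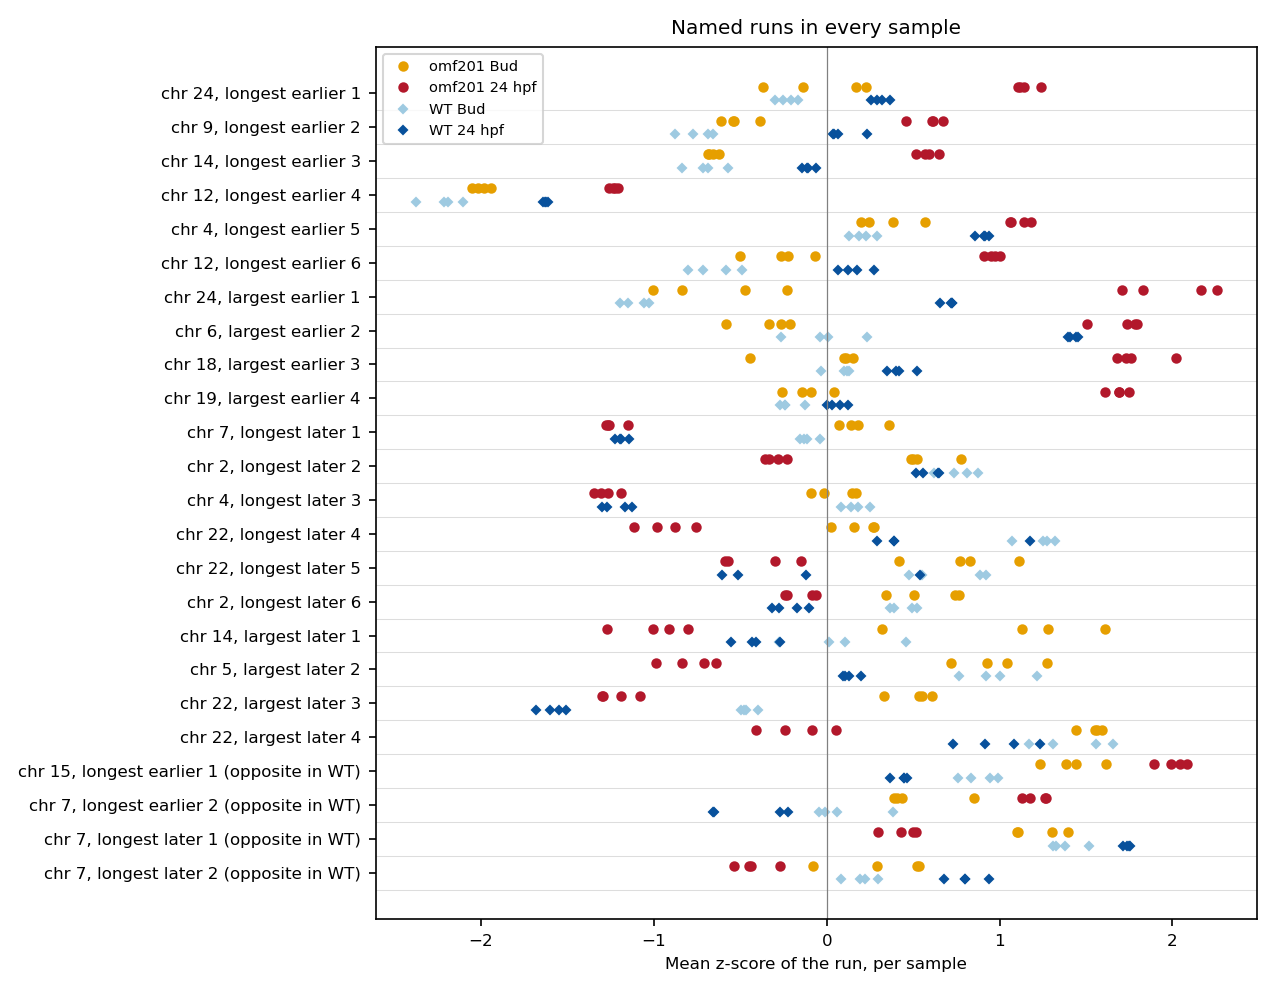
Each row is 1 named domain, labelled by chromosome, the rule that chose it and its rank; points are the mean z-scores of single samples on the x axis, circles for omf201 and diamonds for WT. The upper 20 rows are the longest and most changed domains, where the WT means move the same way. The lowest 4 rows are domains called in opposite directions in the genotypes.

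Stretches that moved against WT were looked for after the values had been seen. There were 102 stretches called earlier in omf201 and later in WT, and 107 of the reverse kind. The 2 longest of the first kind were chr15:27570000-28040001 and chr7:43400000-43840001. At the former, omf201 went from 1.44, 1.38, 1.23 and 1.62 to 1.89, 2.05, 1.99 and 2.08, and WT from 0.942, 0.992, 0.762 and 0.834 to 0.447, 0.467, 0.449 and 0.364. An early region thus became still earlier in omf201 and later in WT, with no overlap of the stages in either genotype. The omf201 change of 0.585 was 0.291 after quantile normalisation of the z-scores. On the log2 scale the changes there were 0.165 in omf201 and -0.042 in WT. At chr7:43400000-43840001, omf201 changed by 0.689 and WT by -0.551 (0.136 and -0.116 on the log2 scale). The 2 longest of the reverse kind were both on chromosome 7. At chr7:25750000-26820001 the changes were -0.788 in omf201 and 0.356 in WT, and edgeR called 14.7% of the windows in omf201. On the log2 scale omf201 went only from 0.116 to 0.0686 there, a change of -0.048, against 0.127 in WT. At chr7:19070000-19520001 the changes were -0.740 and 0.605 (-0.104 and 0.128 on the log2 scale). Chromosomes 15 and 7 had the highest shares of windows called in opposite directions, 4.40% and 4.16%, against 1.98% of all windows.

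The mean z-scores of chromosomes changed as well, by much less than those of domains. Such a mean is taken over all windows of a chromosome, so a change in a part of it can move the mean. The mean z-score of a chromosome did not overlap between the stages for 13 of the 25 chromosomes, 7 of them higher at 24 hpf and 6 lower. Each had a two-sided exact permutation p = 0.0286 and an adjusted p = 0.0549, so none passed after adjustment over 25 chromosomes. On the deposited log2 values the same exact permutation test gave p = 0.0286 for 15 chromosomes, and all 15 passed with an adjusted p = 0.0476. Log2 values are not centred, and their mean was lower at 24 hpf in each of the 4 classes of WT Bud timing. The adjusted p also turns on the number of chromosomes at this lowest p. In a setting with 14 of them, the like-numbered G1 reference, it was 0.0510 in the exact permutation test and none passed. With limma on the 25 chromosome means, 12 chromosomes had an adjusted p under 0.05. Those whose mean rose were 7, 9, 11, 12, 13, 14, 18 and 24, and those whose mean fell were 2, 3, 4 and 22. Of these, chromosomes 11 and 12 overlapped between the stages. Chromosomes 1, 21 and 25 did not overlap but did not pass with limma. The largest changes to earlier were 0.243 on chromosome 24 and 0.242 on chromosome 18. Chromosome 18 lay at -0.191, -0.171, -0.233 and -0.207 at Bud and at 0.0223, 0.0606, 0.0425 and 0.0393 at 24 hpf. Of its windows 33.8% were called earlier and 16.1% later. The largest change to later was -0.279 on chromosome 4, from -0.133 ± 0.0498 to -0.412 ± 0.0522 (SD, n = 4 each). Its long arm, 1790 of its 4518 windows, changed by -0.672. On chromosome 24 the domains from 950000 and 2660000, with 104 and 315 of its 3915 windows, changed by 2.63 and 1.18. The change of the remaining windows was not computed, so these means do not show that a whole chromosome shifted. On chromosomes 24, 18 and 4 the WT means moved alike, by 0.227, 0.232 and -0.362, and no interaction passed with limma. On chromosomes 2 and 3, the changes were -0.210 and -0.213 in omf201 and -0.111 and -0.147 in WT.

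**Figure D5:**
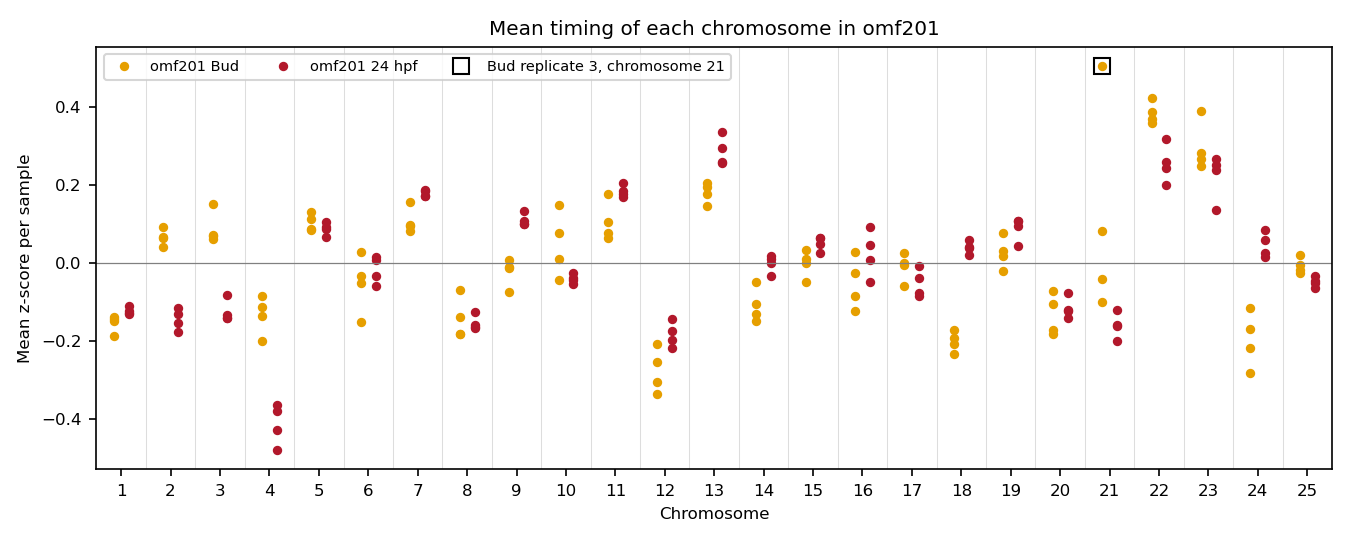
Points are the mean z-score (y axis) of each of the 25 chromosomes (x axis) in the 4 Bud (orange) and 4 24 hpf (red) omf201 samples. Chromosomes 2, 3, 4 and 22 are lower at 24 hpf and chromosomes 18 and 24 higher, without overlap, and the square marks Bud replicate 3 on chromosome 21, at 0.506.

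Chromosome 14 was the 1 chromosome whose change differed between the genotypes with limma on chromosome means. The omf201 samples lay at -0.105, -0.130, -0.148 and -0.0473 at Bud and at -0.0331, 0.0186, 0.0118 and 0.00064 at 24 hpf, without overlap. The WT samples lay at -0.186, -0.214, -0.178 and -0.137 at Bud and at -0.214, -0.194, -0.196 and -0.234 at 24 hpf, with overlap. The interaction was 0.138 ± 0.0309 (SE) with a limma adjusted p = 0.00916. It was 0.125 without Bud replicate 3, with a limma adjusted p = 0.0153.

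The size of the change on chromosome 21 depended on a single library. Its mean z-score in Bud replicate 3 was 0.506, against -0.101 to 0.0833 in the other Bud samples and -0.199 to -0.120 at 24 hpf. The G1 library of the same number and stage also had more counts on this chromosome, by 0.0517 in log2 over the mean of the other replicates, and the S-phase library by 0.0530. On all other chromosomes at either stage such deviations were -0.0160 to 0.0152 for G1 and -0.0194 to 0.0150 for S phase. The change of chromosome 21 was -0.272 with all samples (limma adjusted p = 0.0567) and -0.141 without Bud replicate 3, and the stages did not overlap either way. It was -0.112 when each sample was divided by the G1 library of its own number (two-sided exact permutation p = 0.0286). With all samples its interaction with genotype was -0.294 and did not pass (limma adjusted p = 0.107), where WT had changed by 0.0220. Without Bud replicate 3 limma gave an adjusted p = 0.0121 for the change and 0.0170 for the interaction, then -0.163. That sample stood out by its value on this same chromosome, so the p-values without it are given as a description.

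Chromosome 4 has a long arm rich in repeats and poor in genes, known for late replication, and in omf201 it became later. It was taken as the 1790 windows from position 28000000, and its mean z-score was -0.676, -0.855, -0.552 and -0.682 at Bud and -1.54, -1.36, -1.26 and -1.30 at 24 hpf. The stages did not overlap. The mean fell by 0.672 (two-sided exact permutation p = 0.0286, adjusted p = 0.0381 over 4 classes), 55.5% of the windows were called later and 18 windows (1.01%) earlier, against 28.2% and 26.7% of all windows. The windows of the arm also enter the mean of chromosome 4, which changed by -0.279, so these changes are not separate results. In WT the arm changed by -0.886. The G1 counts of the arm in omf201 differed by 0.0130 in log2 between the stages.

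The ends of chromosomes replicated late in omf201 relative to the rest at both stages. The outer 2 Mb at each end, 7354 windows, differed from the other windows by -0.248, -0.254, -0.134 and -0.291 z units at Bud and by -0.273, -0.274, -0.247 and -0.241 at 24 hpf. The stages overlapped, and the change of -0.0270 had a two-sided exact permutation p = 0.657. In WT the ends lay above the rest, by 0.128 at Bud and 0.0502 at 24 hpf, and this excess fell by 0.0775 (exact permutation p = 0.0286). The direction of this change depended on the G1 reference. The deposited profiles of both stages share a reference, whereas the log2 G1 counts of the ends relative to the rest were -0.00989 ± 0.00882 at Bud and -0.0300 ± 0.00092 at 24 hpf in omf201 (SD, n = 4 each). With the G1 libraries of each stage as its own reference, the ends lay at -0.367 at Bud and -0.208 at 24 hpf, a change of 0.159 (exact permutation p = 0.0286). With that reference the WT change was 0.0916 (exact permutation p = 0.0286). In omf201 the ends were below the rest at both stages with either reference. In WT they were above it, but the size at Bud depended on the reference. It was 0.128 as deposited, 0.0224 with the G1 libraries of the same stage and 0.0159 with the like-numbered G1 library. At 24 hpf it was 0.114 with either of the latter 2.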

How the data were processed

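Genomic DNA of sorted S-phase and G1 nuclei was sequenced, and the authors processed the reads with RepliTimer 1.0.11, per the labels. Reads were placed on GRCz11, per the submitters' processing notes, and the aligner and read filters are not given in the sources used here. The deposited counts are whole reads per window for each library, without normalisation. The deposited ratio was recomputed from them as the count over the library's mean, divided by the median of the 8 G1 libraries of the genotype, both stages together. The deposited smoothed ratio was recovered with a smoothing spline (penalty 1e+16 bp cubed, broken at gaps over 200 kb), the deposited log2 value as its log2, and the deposited z-score (a unitless score) as its distance from the library mean in SDs. Recomputed z-scores were within 7.79e-06 of the deposited ones.

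Profiles covered 120059 of 120082 count windows on 25 chromosomes. Libraries of a group all differed by more than counting noise in 1355 bins of 1 Mb. For pairs of omf201 S-phase libraries, chi-square values were 1.51 to 2.29 times their degrees of freedom at Bud and 2.04 to 3.93 times at 24 hpf. Counting errors cover counting only. The z-scores of the 8 omf201 samples were compared in limma 3.58.1 (R 4.3.3), and the genotype by stage interaction was fitted on 16 samples of both genotypes, with Benjamini-Hochberg adjustment over all windows and a threshold of 0.05. Counts were tested with edgeR 4.0.16 and, as an alternative, DESeq2 1.42.0. Values per sample were compared by two-sided exact permutation tests in scipy 1.17.1. The window tests of the omf201 change in limma, edgeR and DESeq2 were checked on simulated data, in which windows were independent. The interaction fits and the limma fit of chromosome means were not checked in this way. No pairing of replicate numbers across stages is stated, and fits had no block. Correlations of deviations between like-numbered S-phase samples were 0.0300 to 0.188. In chromosome means, the omf201 samples had the same order by number at both stages on chromosomes 6, 12 and 24, but not on chromosome 21. The tests of chromosome means took no account of such an order.

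Named domains are the 6 longest runs of called windows in each direction and the 4 runs of at least 500 kb with the largest mean change. The alternatives were other scales, filters, G1 references, tools and samples left out. The groups compared, the classes and these rules were chosen with earlier results of these data known. A planned split of windows by gene density and planned gene lists were not analysed here, as the annotation at hand, GRCz12tu, is of another build than the coordinates, and for the same reason no gene is named.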

Additional observations from a re-analysis of the deposited data

Results flagged for a closer look

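In 7 of 108 groups of 4 samples, each tested for 1 value, 1 sample lay apart from the other 3 by more than Dixon's critical share of the group's range, where chance gives about 5% of groups. In 3 of the cases the sample was Bud replicate 3, the sample least like the other Bud samples. It was the highest on chromosome 3, at 0.151 against 0.0625 to 0.0731, and over the domain from 43400000 on chromosome 7, at 0.851 against 0.387 to 0.437. It was the lowest over the domain from 38170000 on chromosome 18, at -0.446 against 0.0987 to 0.151. Bud replicate 4 was the highest over the domain from 35890000 on chromosome 2, at 0.777 against 0.488 to 0.525. At 24 hpf, replicate 3 was the highest on chromosome 3, at -0.0823 against -0.141 to -0.133, and on chromosome 8, at -0.126 against -0.165 to -0.160. Replicate 2 was the highest over the domain from 4230000 on chromosome 7, at -1.15 against -1.28 to -1.26.

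The change from Bud to 24 hpf differed between omf201 and WT, by the limma interaction of genotype and stage, in 26.4% of windows. Among chromosome means it differed for chromosome 14, by 0.138 z units (limma adjusted p = 0.00916).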

How the results depend on the processing

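Of 129 recomputed values of the main results, 86 kept their direction, side of the threshold and size. The percent of windows called in omf201 was 29.4% with DESeq2 on counts and 47.7% to 56.6% without 1 sample. Windows called in all 8 fits without 1 sample were 43.8% of all windows, or 79.8% of those called. The interaction was called in 14.4% of windows at an adjusted p under 0.01, 40.2% on log2 values, 15.4% with each sample's like-numbered G1 library as reference, 10.8% with edgeR and 22.3% to 29.2% without 1 sample. With a replicate block the percents were 56.4% for the omf201 change and 26.2% for the interaction, and the block moved no count of calls by over 1.5 times. Replicate numbers are no stated pairing, and 2 of 4 samples correlated best with their own number.

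Without 1 sample the exact permutation p can be no smaller than 0.0571, so no class passed then. The changes ranged from -0.727 to -0.615 for the chromosome 4 long arm, from 0.635 to 0.654 for windows earlier in WT, from -0.618 to -0.596 for windows later in WT and from 0.0611 to 0.0646 for the amplitude. The change at chromosome ends was -0.0198 on log2 values (exact permutation p = 0.0286). It reversed to 0.159 with the G1 libraries of the same stage as reference, to 0.153 with the like-numbered G1 library (both exact permutation p = 0.0286) and to 0.00544 without Bud replicate 3, with a range of -0.0467 to 0.00544 without 1 sample. Of the chromosomes, 15 passed the exact permutation test on log2 values and 12 passed limma on z-scores, against 0 in the exact permutation test on z-scores. The domain from 38820000 on chromosome 12 reversed on log2 values, to -0.0097. Of 311 recomputed domain values this was the 1 reversal, and 23 others moved by more than the spread between samples. Where no alternative shows it by its construction, the cause was not tested. The filter on low counts removed no window, and the planned split by gene density was not run. At Bud, counting error was 3.72% to 5.89% per window before smoothing.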
